A study of Homo sapiens with 36 samples.

Results

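The genes for the protein components of the mitochondrial ribosome were described in bulk RNA of HEK293 cells. Members were all genes whose symbol is MRPL or MRPS followed by a number, with at most 1 letter from A to C after it. The rule reads symbols and no expression value, though the members were chosen with earlier results of these data known. The rule found 78 of the 36601 genes in the deposited count table, 49 of them named for the large subunit (MRPL) and 29 for the small subunit (MRPS).

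The mitochondrial ribosome translates the mRNAs encoded by mitochondrial DNA, which specify core subunits of the respiratory chain and of ATP synthase. Its proteins are encoded in the nucleus, made by cytosolic ribosomes and imported, then assembled with RNAs transcribed inside the organelle. The small subunit binds and decodes the mRNA, and the large subunit forms the peptide bond and holds the exit tunnel. Kidney tubule cells rely on respiration for their transport work, and a dividing line such as HEK293 has to build new mitochondrial ribosomes with each division.

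HEK293 is an established cell line of human embryonic kidney origin. The series maps how cells respond when an endogenous protein carrying HaloTag, an enzyme-derived tag, is bound by a hydrophobic ligand, and the bulk labels place all 12 libraries in its tagged library. The clones carry the numbers 4 and 5, and each was sequenced after DMSO (no ligand) and after HyT36, which makes 4 groups of 3 libraries. HyT36 is a hydrophobic ligand of HaloTag, used at 25 µM per the labels' protocols, and DMSO is its solvent. No source used here gives the tagged protein of either clone or how long the bulk cultures were exposed, and the protocols name 2 and 12 h. None of the 12 libraries is labelled as untagged, so an effect of the ligand alone and an effect that needs the tag cannot be told apart. Each clone is a line of its own with no other clone of its kind, so a difference between clones 4 and 5 cannot be told apart from clonal variation. Whether a group's libraries came from separate cultures is not in the labels, so the p-values rest on the spread between these libraries alone, which may be technical.

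Gene counts ranged from 22853946 to 28635511 per library. Levels are given as CPM, the gene's reads scaled to a common library total after TMM adjustment, and they are not corrected for transcript length. The HEK293 markers PAX2 (12.1 to 14.8 CPM), LHX1 (11.2 to 18.9 CPM) and SALL1 (32.2 to 44.1 CPM) were present in all 12 libraries, and the neurofilament genes NEFL and NEFM were at or near 0. Transcripts of epithelial cells stood out in 6 libraries, where KRT19 was at 32.2 to 69.9 CPM against 0.0418 to 0.235 CPM in the other 6. The 6 were replicate 1 of clone 4 with DMSO, replicates 2 and 3 of clone 4 with HyT36, and all 3 of clone 5 with DMSO. The summed level of the 12 epithelial markers was 17.7 to 120 CPM in clone 4 with DMSO, 16.2 to 79.1 in clone 4 with HyT36, 70.0 to 92.1 in clone 5 with DMSO and 20.2 to 25.5 in clone 5 with HyT36. In clone 5 this split coincides with the treatment, so the ligand and these transcripts cannot be told apart there. Blood markers summed to at most 0.391 CPM, with CD3E and HBB at 0, and fibroblast markers to 5.05 to 8.92 CPM, mostly COL1A1.

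Of the 78 members, 77 were tested, 48 of the large and 29 of the small subunit. The exception was MRPL53, a large subunit gene at chr2:74471982-74472680 in RefSeq on GRCh38.p14. It had 0 reads in every library, which allows a level of up to 0.105 to 0.131 CPM by a floor of 3 reads that covers counting error only. Absence of its transcripts and reads not being assigned to it cannot be told apart here. The 77 others had at least 217 reads in each library. Mean levels ran from 10.7 CPM for MRPS18C to 231 CPM for MRPL37. The highest large subunit members were MRPL37, MRPL3 (217 CPM), MRPL18 (184 CPM) and MRPL42 (168 CPM), and the lowest were MRPL55 (17.1 CPM), MRPL33 (28.7 CPM), MRPL54 (35.2 CPM) and MRPL23 (38.3 CPM). In the small subunit the highest were MRPS27 (148 CPM), MRPS16 (131 CPM), MRPS18B (119 CPM) and MRPS11 (110 CPM), and the lowest were MRPS18C, MRPS18A (23.7 CPM), MRPS17 (24.7 CPM) and MRPS36 (26.2 CPM). Since transcript lengths were not used, these values do not order the genes by number of transcripts. Levels were steady across the series: in 75 of the 77 the highest library was less than 1.5 times the lowest, and the median coefficient of variation within a group was 3.59%. Many members have processed pseudogenes elsewhere in the genome, and no source used here says how reads shared with them were counted, so reads may be split between copies.

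Promoters were searched for motifs of 3 factors linked to genes of this kind. RefSeq windows of 300 bases on GRCh38.p14, from 250 before to 50 after an annotated start, matched 69 of the 78 members with 85 windows. No window was matched for MRPL2, MRPL10, MRPL13, MRPL15, MRPL21, MRPL23, MRPL35, MRPS28 and MRPS36. They were searched on both strands for the NRF1 motif (NRF1 regulates nuclear genes for mitochondria), for CCGGAAG (bound by ETS factors such as GABPA) and for the YY1 motif (its letters are the capitals in the MRPS24 promoter shown here). The ETS letters were in 38.8% of the member windows against 10.3% of all 35116 promoter windows. The YY1 letters were in 11.8% against 0.849%, and the NRF1 letters in 11.8% against 5.78%. Among windows of genes tested the shares were 16%, 1.61% and 9.41% for the ETS, YY1 and NRF1 letters. A match describes letters in a window, not a bound site.

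Promoters of 5 members that the comparisons below turn on are shown, with the ETS or YY1 letters in capitals. MRPS12 (chr19:38930694-38930993, plus strand) and MRPS24 (chr7:43869468-43869767, minus strand) were the small subunit members furthest above clone 4 in clone 5 in the presence of ligand. MRPL16 (chr11:59810729-59811028, minus strand) was among the large subunit members furthest below. MRPL49 (chr11:65121933-65122232, plus strand) and MRPS17 (chr7:55951627-55951926, plus strand) fell with ligand in both clones, and their windows hold none of the 3 motifs.
MRPS12: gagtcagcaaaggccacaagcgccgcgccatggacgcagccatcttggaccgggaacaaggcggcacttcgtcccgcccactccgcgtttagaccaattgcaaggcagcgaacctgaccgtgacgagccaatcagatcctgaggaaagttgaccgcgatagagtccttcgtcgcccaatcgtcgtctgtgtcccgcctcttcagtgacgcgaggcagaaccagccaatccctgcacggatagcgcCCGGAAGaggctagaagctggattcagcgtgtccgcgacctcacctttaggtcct
MRPS24: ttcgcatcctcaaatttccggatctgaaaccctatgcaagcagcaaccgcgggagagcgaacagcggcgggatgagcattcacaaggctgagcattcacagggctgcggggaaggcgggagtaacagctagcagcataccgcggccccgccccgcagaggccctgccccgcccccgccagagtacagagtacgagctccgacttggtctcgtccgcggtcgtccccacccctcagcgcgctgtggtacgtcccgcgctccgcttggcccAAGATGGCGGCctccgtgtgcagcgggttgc
MRPL16: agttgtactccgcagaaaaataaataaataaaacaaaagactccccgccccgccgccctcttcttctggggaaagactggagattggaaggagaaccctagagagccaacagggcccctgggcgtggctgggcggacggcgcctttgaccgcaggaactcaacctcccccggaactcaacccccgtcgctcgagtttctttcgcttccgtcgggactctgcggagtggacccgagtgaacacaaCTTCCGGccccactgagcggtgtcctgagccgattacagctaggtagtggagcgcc
MRPL49: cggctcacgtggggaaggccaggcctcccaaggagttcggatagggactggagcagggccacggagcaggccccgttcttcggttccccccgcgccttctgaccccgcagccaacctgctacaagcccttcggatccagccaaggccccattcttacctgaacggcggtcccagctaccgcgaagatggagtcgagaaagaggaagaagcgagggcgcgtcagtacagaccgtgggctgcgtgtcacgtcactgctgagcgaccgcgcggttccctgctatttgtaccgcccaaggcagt
MRPS17: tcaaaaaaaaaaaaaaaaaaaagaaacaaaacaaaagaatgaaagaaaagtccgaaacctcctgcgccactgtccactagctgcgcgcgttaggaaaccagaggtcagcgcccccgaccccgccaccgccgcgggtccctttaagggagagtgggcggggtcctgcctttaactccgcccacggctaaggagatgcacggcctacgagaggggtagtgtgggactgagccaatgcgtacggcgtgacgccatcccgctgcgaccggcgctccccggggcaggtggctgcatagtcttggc

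Whether the ligand changed these genes was asked in each clone. In both clones nearly all members stayed close to their DMSO level, and no log2 fold change exceeded 0.29 in size in clone 4 or 0.28 in clone 5. In clone 4, 5 of 77 members (6.49%) passed an adjusted p of 0.05 in edgeR's quasi-likelihood test, against 5.57% of all 14892 genes tested. MRPL37 rose, and MRPL49, MRPL44, MRPL54 and MRPS17 fell, against 2.21% of all genes higher and 3.36% lower. In clone 5, 4 of 77 (5.19%) passed against 8.19% of all genes, and all 4 fell: MRPL49, MRPL36, MRPL35 and MRPS17. Of all genes 3.35% were called higher and 4.83% lower in clone 5. These shares lie near the background, so the number called is no result about the members. The log2 fold change was above 0 for 37.7% of members in each clone, against 50.8% of all genes in clone 4 and 48.8% in clone 5.

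By subunit, 4 of 48 large subunit members were called in clone 4 (1 higher, 3 lower) and 1 of 29 small subunit members. With library totals and no scaling factor, the large subunit split was 0 higher and 4 lower. In clone 5 the counts were 3 of 48 and 1 of 29, all lower. The median log2 fold change was -0.02 for each subunit in clone 4 and -0.03 for each in clone 5, against 0.00 for all genes in clone 4 and -0.00 in clone 5. Libraries with ligand and with DMSO did not overlap for 13 members (16.9%) in clone 4, against 23.5% of all genes, and for 14 (18.2%) in clone 5, against 25.1%. The direction of the clone 4 response depended on the libraries. Among the 6 libraries with many epithelial transcripts, where replicate 1 is the only DMSO library of clone 4, 3 large subunit members were called, all higher, and 0 small, with medians of 0.05 and 0.04. Among the 6 with few, where replicate 1 is the only HyT36 library of clone 4, 0 large and 2 small subunit members were called, both lower, with medians of -0.03 and -0.06. With these transcripts as a covariate the large subunit split was 2 higher and 1 lower. Without DMSO replicate 2 of clone 4 the medians were 0.01 for each subunit.

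MRPL49, a mitochondrion-specific protein of the large subunit, had the lowest adjusted p in each clone. Its levels in clone 4 were 94.1, 98.4 and 98.3 CPM with DMSO and 83.2, 84.8 and 84.4 CPM with HyT36. In clone 5 they were 84.6, 87.9 and 87.3 CPM with DMSO and 70.8, 74.1 and 69.8 CPM with HyT36. All 3 ligand libraries lay below all 3 DMSO libraries in each clone. The log2 fold change was -0.20 (SE 0.0415, edgeR adjusted p = 0.0011) in clone 4 and -0.28 (SE 0.0424, edgeR adjusted p = 1.9e-05) in clone 5. The gene starts 49 and 187 bases from starts of FAU, on the opposite strand, a gene for a cytosolic small subunit protein. FAU had log2 fold changes of -0.08 and -0.05 with ligand, neither past the threshold (edgeR adjusted p = 0.76 and 0.87). MRPL49 also overlaps SYVN1, and without a stated strand setting reads of the overlap cannot be assigned to either gene.

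MRPS17, the counterpart of bacterial uS17 in the small subunit, was the other member called in both clones. Clone 4 gave 24.3, 27.8 and 27.9 CPM with DMSO and 23.3, 21.5 and 21.4 CPM with HyT36. Clone 5 gave 28.5, 27.4 and 26.1 CPM with DMSO and 23, 23.6 and 21.4 CPM with HyT36. The groups did not overlap, although replicate 1 of clone 4 with DMSO lay close to the highest ligand library. The log2 fold change was -0.27 (SE 0.0699, edgeR adjusted p = 0.011) in clone 4 and -0.27 (SE 0.0701, edgeR adjusted p = 0.010) in clone 5. The clone 4 call was lost when any of DMSO replicates 2 and 3 or HyT36 replicates 2 and 3 was left out. It was also lost in both subsets by epithelial transcripts, which leave 1 library in a group of clone 4. The clone 5 call was lost without DMSO replicate 1 or HyT36 replicate 3.

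In clone 4 alone, MRPL44, an RNase III-like protein at the surface of the large subunit, measured 64.3, 66.0 and 65.9 CPM with DMSO and 61.4, 57.4 and 55.6 CPM with HyT36. It fell by 0.17 on the log2 scale (SE 0.048, edgeR adjusted p = 0.027), with no overlap of the groups. The call was lost without DMSO replicate 2 or 3 or HyT36 replicate 2 or 3, with the epithelial covariate and with no low-count filter. It was also lost in both subsets by epithelial transcripts, which leave 1 library in a group of clone 4. MRPL54, a mitochondrion-specific large subunit protein, measured 35.0, 38.7 and 38.1 CPM with DMSO and 32.2, 32.2 and 32.5 CPM with HyT36. It fell by 0.21 on the log2 scale (SE 0.0588, edgeR adjusted p = 0.026), again without overlap. Its call was lost without any of the same replicates or HyT36 replicate 1, with the covariate and in both subsets. MRPL37, also mitochondrion-specific, measured 219, 239 and 237 CPM with DMSO and 257, 253 and 249 CPM with HyT36. It rose by 0.12 on the log2 scale (SE 0.0384, edgeR adjusted p = 0.045), the only rise past the threshold among the members in either clone. This call was lost in 12 of 22 alternative analyses. Among them were those without DMSO replicate 1 or 3 or any HyT36 library of clone 4 or any DMSO library of clone 5. The same genes in clone 5 had log2 fold changes of -0.09 for MRPL44, -0.04 for MRPL54 and 0.04 for MRPL37, none past the threshold.

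In clone 5 alone, MRPL36, the counterpart of bacterial bL36, measured 59.3, 55.1 and 60.9 CPM with DMSO and 52.4, 53.0 and 49.0 CPM with HyT36. It fell by 0.18 on the log2 scale (SE 0.0515, edgeR adjusted p = 0.018). The call was lost without DMSO replicate 1 or 3, without HyT36 replicate 3 and with the epithelial covariate. In clone 5 that covariate is estimated from the clone 4 libraries alone, so it cannot separate these transcripts from the ligand. MRPL35, the counterpart of bacterial bL35, measured 112, 115 and 111 CPM with DMSO and 105, 104 and 99.8 CPM with HyT36. It fell by 0.13 on the log2 scale (SE 0.0417, edgeR adjusted p = 0.044), and the call was lost in 16 of 20 alternative analyses, among them those without any 1 library of clone 5. For both genes ligand and DMSO libraries did not overlap in clone 5, nor in clone 4, where the log2 fold changes were -0.11 for each (edgeR adjusted p = 0.22 for MRPL36 and 0.11 for MRPL35).

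**Figure D1:**
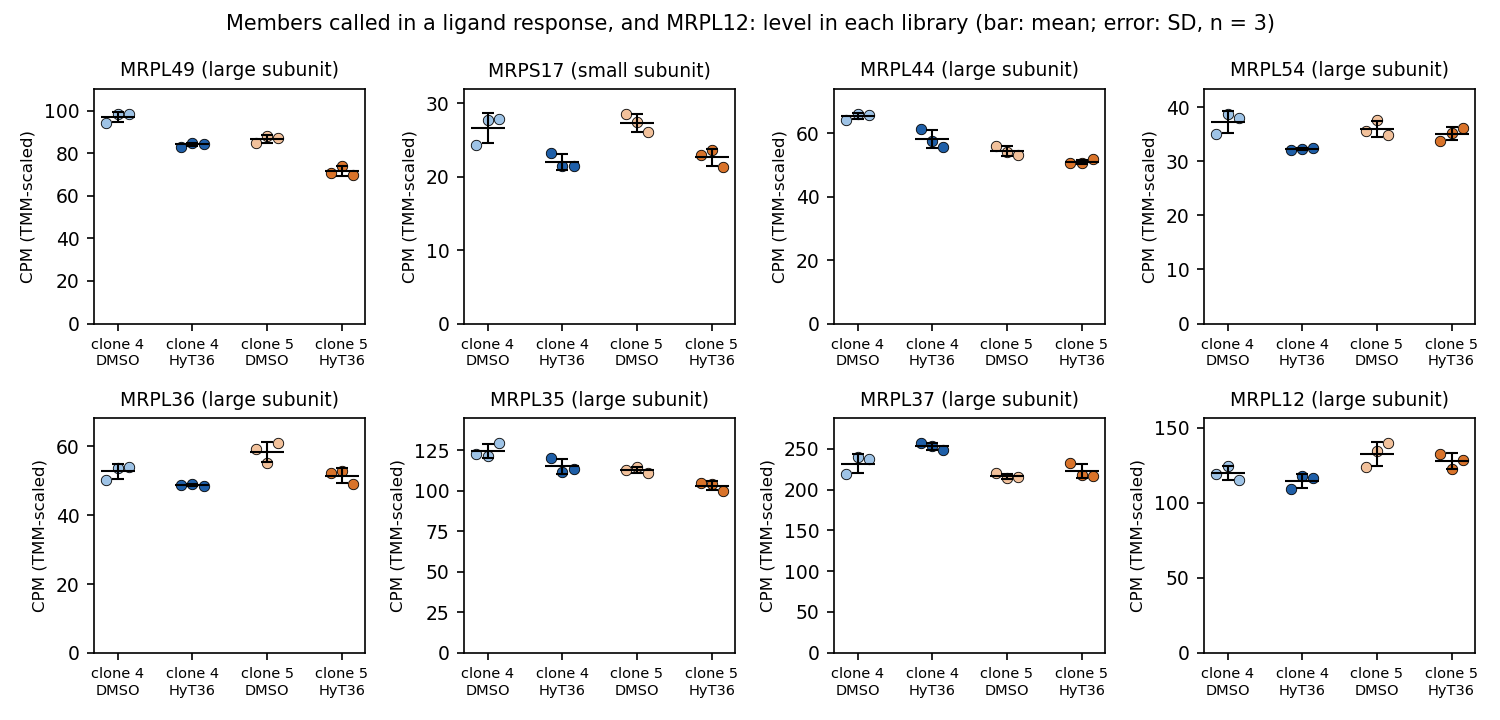
Level in CPM (vertical axes, from 0) of the 7 members called in a ligand response and of MRPL12, by group on the horizontal axes. Points are libraries, horizontal bars means and error bars SD (n = 3); MRPL49 and MRPS17 lie lower with HyT36 in both clones, and the DMSO and HyT36 libraries of MRPL12 overlap in each clone.

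Whether the clones responded differently was tested as the difference between the responses. It passed for 0 of 77 members in edgeR, and for 0 in DESeq2 and in limma-voom, against 0.302% of all genes in edgeR. At an unadjusted p under 0.05 in edgeR there were 3 of 77, all of the large subunit, against 1192 of all 14892 genes. So the calls made in only 1 clone are not shown to differ between the clones. MRPL49 and MRPS17 were 2 of 77 members (2.60%) called in the same direction in both clones, against 2.77% of all genes. The sign of the log2 fold change was shared by 51 of 77 members (66.2%), against 63.7% of all genes. No library is shared between the responses of the clones.

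**Figure D2:**
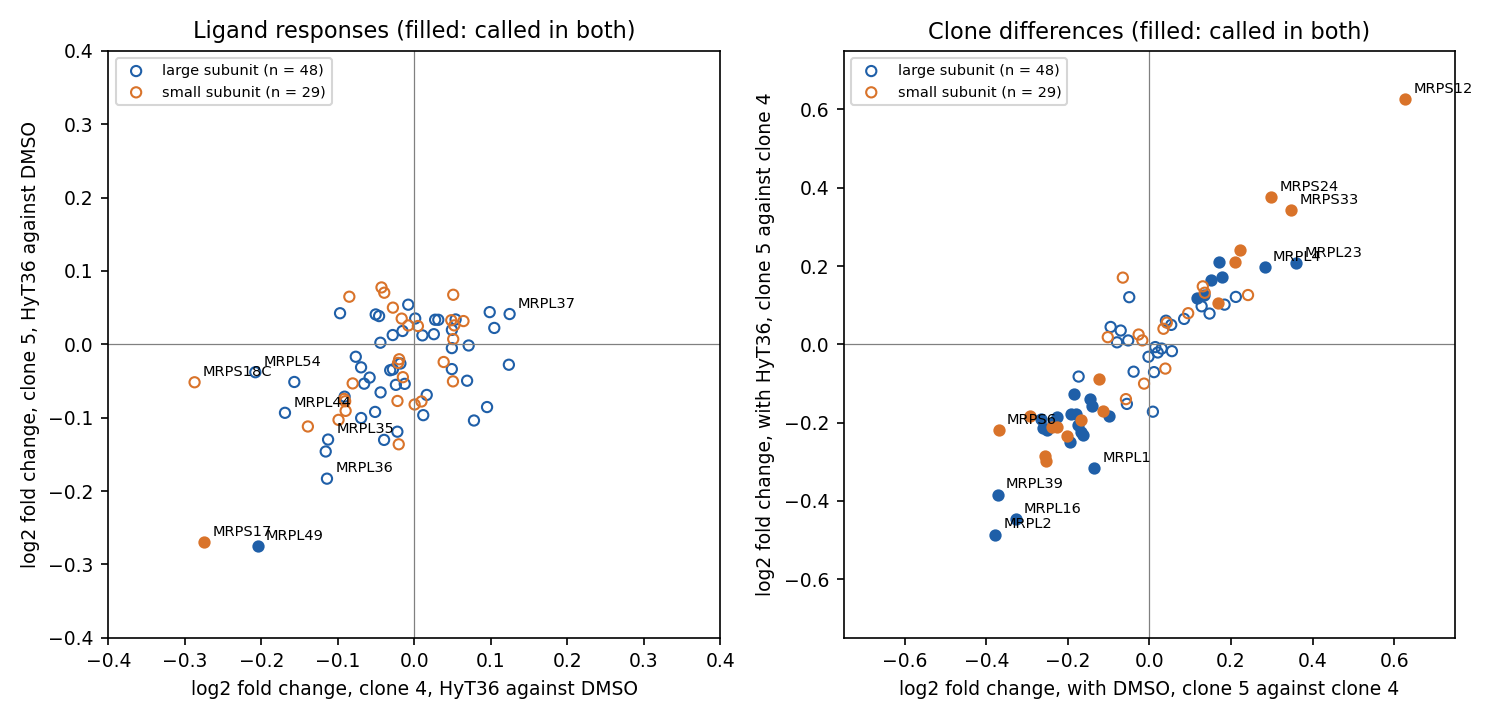
Left, log2 fold change with ligand in clone 4 (horizontal) and clone 5 (vertical); right, log2 fold change of clone 5 against clone 4 with DMSO (horizontal) and with HyT36 (vertical). Each circle is 1 of 77 members, coloured by subunit and filled where called in both comparisons of its panel: 2 on the left and 42 on the right.

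Members with known regulatory or disease roles were mostly not called with ligand. MRPL12, a stalk protein that has also been described as a partner of the mitochondrial RNA polymerase, had log2 fold changes of -0.07 in clone 4 and -0.05 in clone 5 (edgeR adjusted p = 0.46 and 0.56). MRPL58, a peptidyl-tRNA hydrolase built into the large subunit, had 0.10 and -0.09 (edgeR adjusted p = 0.32 and 0.39). MRPL45, which helps to hold the ribosome at the inner membrane, had 0.10 and 0.04 (edgeR adjusted p = 0.18 and 0.63). MRPS27 and MRPS22, small subunit proteins, and MRPS34 and MRPL41 lay between -0.10 and 0.06 in each clone, with no call. MRPS18C had the lowest counts of all members tested and a log2 fold change of -0.29 in clone 4 with an SE of 0.116 (edgeR adjusted p = 0.16), the largest SE of the members in that comparison.

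The clones themselves differed far more than the treatments did. Clone 5 was compared with clone 4 within each treatment, and these comparisons share no library. With DMSO, 48 of 77 members (62.3%) were called by edgeR, 18 higher and 30 lower in clone 5, against 55.5% of all genes tested, 27.3% higher and 28.2% lower. With HyT36, 45 of 77 (58.4%) were called, 14 higher and 31 lower, against 56% of all genes, 27% higher and 28.9% lower. In both, more members were called lower than higher, and the share called was close to that of all genes. Libraries of the clones did not overlap for 44 members (57.1%) with DMSO, against 59.8% of all genes, and for 52 (67.5%) with HyT36, against 62.1%. Of the HEK293 markers tested, 7 of 8 were lower in clone 5 as well, with sums of 634 to 665 CPM in clone 4 and 509 to 553 CPM in clone 5, and their part in these differences was not tested.

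In the large subunit 31 of 48 were called with DMSO (11 higher, 20 lower, median log2 fold change -0.05) and 28 of 48 with HyT36 (7 higher, 21 lower, median -0.05). With no scaling factor the splits were 13 higher and 17 lower with DMSO and 13 higher and 19 lower with HyT36. In the small subunit 17 of 29 were called under each treatment, 7 higher and 10 lower, with medians of -0.02 with DMSO and 0.02 with HyT36. With no scaling factor these splits were even, 8 and 8 with DMSO and 9 and 9 with HyT36. The same 42 members were called in the same direction under both treatments, 13 higher and 29 lower, which is 54.5% of the members against 46.2% of all genes. They made up 87.5% of those called with DMSO and 93.3% of those called with HyT36. With the epithelial transcripts as a covariate this number was 28, the large subunit split with DMSO was 12 higher and 14 lower, and with HyT36 it was 4 higher and 23 lower. Among the 6 libraries with many epithelial transcripts, with 1 of clone 4 against 3 of clone 5, the DMSO comparison gave 11 higher and 10 lower in the large subunit and 10 higher and 6 lower in the small. Among the 6 with few, again with 1 of clone 4 against 3 of clone 5, the HyT36 comparison gave 4 higher and 19 lower in the large subunit and 7 higher and 6 lower in the small. With the covariate the small subunit split was 8 higher and 7 lower with DMSO and 5 higher and 12 lower with HyT36. The part of these transcripts in the clone differences was not tested. Over all 6 libraries of each clone, 32 members (41.6%) did not overlap between the clones, against 40.4% of all genes (20.2% higher and 20.2% lower). Of these members, 12 were higher in clone 5 (5 large and 7 small subunit) and 20 lower (11 large and 9 small subunit).

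MRPS12, the counterpart of bacterial uS12 at the decoding centre, differed most. Clone 4 gave 76.0, 88.6 and 76.7 CPM with DMSO and 73.1, 76.3 and 77.6 CPM with HyT36. Clone 5 gave 124, 123 and 126 CPM with DMSO and 122, 111 and 117 CPM with HyT36. Every clone 5 library lay above every clone 4 library. The log2 fold change was 0.63 with DMSO (SE 0.0481, edgeR adjusted p = 6.7e-14) and 0.63 with HyT36 (SE 0.0484, edgeR adjusted p = 7.9e-14). Its start lies 181 and 191 bases from starts of SARS2, the mitochondrial seryl-tRNA synthetase, on the opposite strand. SARS2 went the other way, with log2 fold changes of -0.30 with DMSO and -0.32 with HyT36 (edgeR adjusted p = 0.00037 and 0.00015).

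Other small subunit members were also higher in clone 5. MRPS24 measured 85.6, 93.4 and 87.6 CPM in clone 4 and 112, 107 and 109 CPM in clone 5 with DMSO. With HyT36 it measured 85.4, 88.8 and 87.4 CPM in clone 4 and 117, 108 and 115 CPM in clone 5. The clones did not overlap, with log2 fold changes of 0.30 and 0.38 (edgeR adjusted p = 1.5e-07 and 7.8e-10). MRPS33, a mitochondrion-specific protein, had log2 fold changes of 0.35 and 0.34, and MRPS23 had 0.22 and 0.24, all past the threshold. MRPS31 was 0.24 with DMSO and past the threshold, and 0.13 with HyT36 and not past it.

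Among large subunit members MRPL23, at the exit of the tunnel, was the one furthest above clone 4 with DMSO. It measured 32.6, 34.8 and 31.8 CPM in clone 4 and 42.2, 41.3 and 43.8 CPM in clone 5 with DMSO, a log2 fold change of 0.36 (SE 0.0562, edgeR adjusted p = 7.5e-07). With HyT36 it measured 35.8, 36.6 and 35.7 CPM in clone 4 and 42.3, 40.1 and 42.4 CPM in clone 5, a log2 fold change of 0.21 (edgeR adjusted p = 0.0016). Its clones did not overlap under either treatment. The annotated span of MRPL23 overlaps H19, a noncoding RNA with a mean of 5.02 CPM. H19 had a log2 fold change of 0.55 in clone 5 with DMSO (edgeR adjusted p = 0.00057). With HyT36 it was 0.30 and not past the threshold (edgeR adjusted p = 0.058). MRPL4 had 0.28 and 0.20, MRPL57 had 0.21 with DMSO and MRPL52 had 0.21 with HyT36, all past the threshold.

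**Figure D3:**
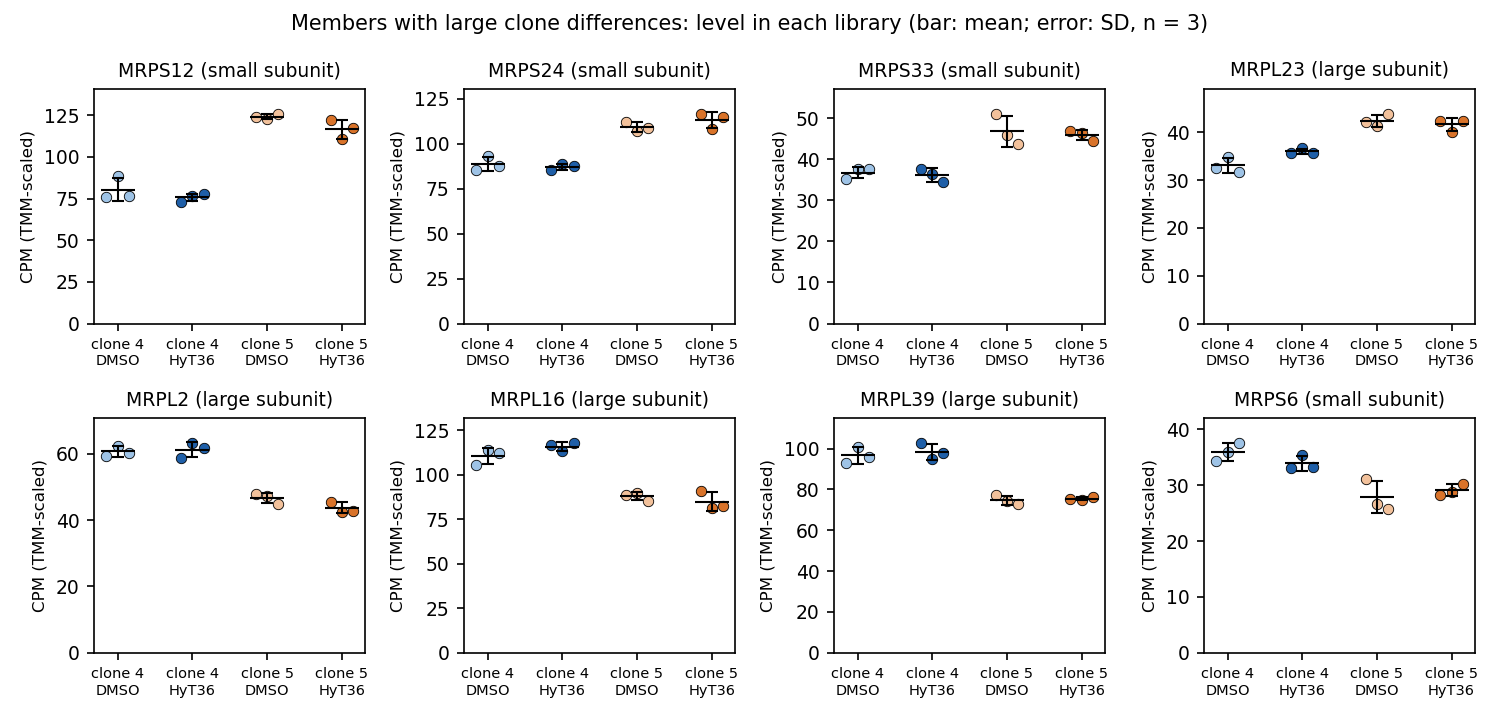
Level in CPM (vertical axes, from 0) of 8 members with large clone differences, by group on the horizontal axes; points are libraries, horizontal bars means and error bars SD (n = 3). MRPS12, MRPS24, MRPS33 and MRPL23 lie higher in all clone 5 libraries, and MRPL2, MRPL16, MRPL39 and MRPS6 lower.

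Of the 8 members furthest below clone 4, 5 were of the large subunit under each treatment, much as among all members tested (48 of 77). MRPL2, a core protein near the peptidyl transferase centre, measured 59.5, 62.5 and 60.2 CPM in clone 4 and 47.9, 47.2 and 45.0 CPM in clone 5 with DMSO. With HyT36 it measured 58.8, 63.1 and 61.8 CPM in clone 4 and 45.6, 42.6 and 42.9 CPM in clone 5. The clones did not overlap, with log2 fold changes of -0.38 (SE 0.0503, edgeR adjusted p = 2.9e-08) and -0.49 (SE 0.0507, edgeR adjusted p = 8.2e-11). KLC4, a kinesin light chain gene that overlaps MRPL2, was higher in clone 5 by 0.23 and 0.32 on the log2 scale, so it moved opposite to MRPL2.

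MRPL16, the counterpart of bacterial uL16, measured 105, 114 and 112 CPM in clone 4 and 88.5, 89.9 and 85.5 CPM in clone 5 with DMSO. With HyT36 it measured 117, 113 and 118 CPM in clone 4 and 90.9, 81.6 and 82.5 CPM in clone 5. The log2 fold changes were -0.33 and -0.45 (edgeR adjusted p = 3.8e-08 and 2.2e-11), with no overlap. MRPL39, a mitochondrion-specific protein, measured 92.9, 101 and 96.0 CPM in clone 4 and 77.1, 74.1 and 72.9 CPM in clone 5 with DMSO. It was lower by 0.37 and 0.38 on the log2 scale under the 2 treatments, both past the threshold. MRPL1 was at -0.14 with DMSO and -0.32 with HyT36, and MRPL44, MRPL45 and MRPL47 were at -0.27, -0.20 and -0.26 with DMSO, all past the threshold.

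In the small subunit MRPS6, the counterpart of bacterial bS6, measured 34.3, 36.0 and 37.5 CPM in clone 4 and 31.2, 26.7 and 25.8 CPM in clone 5 with DMSO, a log2 fold change of -0.37 (SE 0.0663, edgeR adjusted p = 9e-06). With HyT36 the log2 fold change was -0.22 (edgeR adjusted p = 0.0048). SLC5A3, an inositol transporter gene that overlaps MRPS6, was lower in clone 5 by more, at -0.89 and -0.94 on the log2 scale. MRPS7, MRPS9 and MRPS22 were at -0.26, -0.29 and -0.25 with DMSO and at -0.29, -0.18 and -0.30 with HyT36, all past the threshold.

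Position on the chromosome was set beside these differences. Median log2 fold changes of all genes between the clones with DMSO lay between -0.07 and 0.04 on the autosomes that carry members. The 482 genes of the X chromosome, which carries no member, had a median of 0.90. MRPL39 and MRPS6 are the only members on chromosome 21 and both were at -0.37, against a chromosome median of -0.07. With DMSO, 5 of 7 members on each of chromosomes 2 and 11 were called lower in clone 5 and 1 higher. On chromosome 19 the called members, 3 of 4, were all higher. Of all genes tested 28.2% were called lower and 27.3% higher. The medians of all genes on chromosomes 2, 11 and 19 were -0.04, -0.03 and 0.005. These are few members per chromosome, and a part of position was not tested. MRPL46 and MRPS11, of different subunits, start 320 bases apart on opposite strands. MRPL46 was at -0.06 with DMSO and -0.15 with HyT36 (edgeR adjusted p = 0.33 and 0.0064). MRPS11 was at 0.04 and 0.06 (edgeR adjusted p = 0.38 and 0.25). Only the MRPL46 value with HyT36 passed the threshold, so opposite signs are not shown for these neighbours.

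The balance of the subunits was described by the summed CPM of large subunit members divided by that of small subunit members, with no test since it is a score over the members. It was 1.93 ± 0.0159 in clone 4 with DMSO and 1.94 ± 0.0204 in clone 4 with HyT36. It was 1.83 ± 0.0115 in clone 5 with DMSO and 1.82 ± 0.0154 in clone 5 with HyT36 (SD, n = 3 throughout). Clone 4 libraries ranged from 1.91 to 1.96 and clone 5 libraries from 1.81 to 1.84, so the clones did not overlap, while the treatments overlapped within each clone. The large subunit sum was 4078 ± 143 CPM in clone 4 and 3925 ± 42.3 CPM in clone 5 with DMSO, and the small subunit sum 2118 ± 85.9 and 2147 ± 35.3 CPM. In bulk RNA, fewer cells of a type and less RNA per cell cannot be told apart.

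MRPS12 carried part of the ratio. Without it the ratio was 2.00 and 2.01 in clone 4 and 1.94 and 1.93 in clone 5 with DMSO and HyT36, and the clones still did not overlap (1.99 to 2.03 against 1.91 to 1.96). The ratio of the median CPM of the subunits, which gives each gene the same weight, was 0.908, 0.947, 0.885 and 0.903 in the 4 groups in the same order as above, and there the clones overlapped. For the cytosolic ribosome the same ratio of sums was 1.73 in both clone 4 groups and 1.76 in both clone 5 groups, and libraries of the clones overlapped by a narrow margin.

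**Figure D4:**
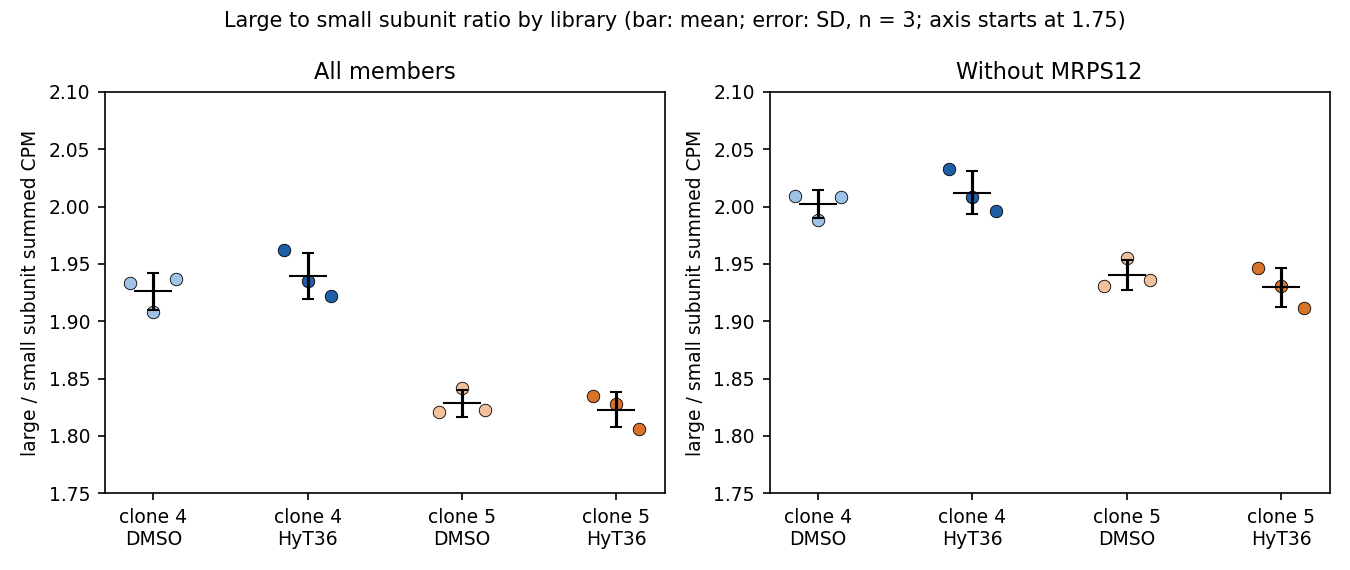
Ratio of summed CPM of large to small subunit members (vertical axis, not starting at 0) in each library by group, for all members and without MRPS12; points are libraries, horizontal bars means and error bars SD (n = 3). Clone 4 lies above clone 5 in both panels.

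Some symbols do not match the subunit. RefSeq gives MRPS18A the systematic name mL66 and MRPS30 the name mL65, both large subunit names, and MRPS36 is listed as KGD4, a component of the 2-oxoglutarate dehydrogenase complex. MRPS18A had no call in any comparison, MRPS30 was lower in clone 5 by 0.11 with DMSO and by 0.17 with HyT36 on the log2 scale, and MRPS36 had no call. With subunits assigned by systematic name, an alternative chosen after seeing the data, the ratio was 2.12, 2.13, 2.00 and 1.99 in the 4 groups. By origin of the protein, 26 tested members have universal names, 18 bacterial and 30 mitochondrion-specific ones. The clone comparison with DMSO called 16 of 26 (61.5%), 12 of 18 (66.7%) and 18 of 30 (60%) of these. Of all genes 55.5% were called and of all members tested 62.3%, so these counts are no result about origin.

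The other genes of mitochondrial translation were taken from lists. Of the mitochondrial ribosome proteins that carry other names (DAP3, PTCD3, AURKAIP1, CHCHD1 and GADD45GIP1), 0 of 5 were called with ligand in either clone. In edgeR 0 had an unadjusted p under 0.05, against 2753 of all 14892 genes in clone 4 and 2976 in clone 5. With DMSO 3 of 5 were called lower in clone 5, against 28.2% of all genes. They were led by PTCD3, a small subunit protein, at 161 ± 4.94 CPM in clone 4 and 113 ± 1.66 CPM in clone 5 (SD, n = 3). Its log2 fold change was -0.51. Of 32 assembly factors, 2 were called with ligand in clone 4 (1 higher, 1 lower) and 3 in clone 5 (all lower). These shares, 6.25% and 9.4%, lie near the 5.57% and 8.19% of all genes, so the number called is no result about the list. MRM2, which methylates the large subunit rRNA, fell in both clones, by 0.19 and 0.29 on the log2 scale (edgeR adjusted p = 0.0092 and 4.8e-05). AFG3L2, a protease that matures MRPL32, rose by 0.14 in clone 4.

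Of 18 translation factors, 1 rose in clone 4 (5.56%), and 1 rose and 2 fell in clone 5 (16.7% called). Of all genes 5.57% were called in clone 4 and 8.19% in clone 5. LRPPRC, which stabilises mitochondrial mRNAs, rose in both, by 0.12 and 0.22 on the log2 scale (edgeR adjusted p = 0.034 and 6.0e-05). MTIF3, an initiation factor, and GUF1, an elongation factor, fell in clone 5 by 0.29 and 0.16. Of 21 genes for mitochondrial DNA transcription and RNA processing, 4 were called in clone 4 and 8 in clone 5, all lower. Of all genes 3.36% and 4.83% were called lower. The list was chosen with earlier results of these data known, so this contrast is a description and not an independent test. TWNK, the mitochondrial DNA helicase, measured 117 ± 3.18 CPM with DMSO and 93.6 ± 3.49 CPM with HyT36 in clone 4, and 91.7 ± 3.15 and 71.7 ± 0.153 CPM in clone 5 (SD, n = 3). It fell by 0.32 and 0.36 on the log2 scale (edgeR adjusted p = 7.6e-07 and 2.6e-07). TRMT10C, a subunit of mitochondrial RNase P, TFB2M, a transcription factor of mitochondrial DNA, and FASTKD1 also fell in both clones. The difference between clones in these responses passed for 0 of 21 genes in edgeR. At an unadjusted p under 0.05 there was 1, against 1192 of all 14892 genes.

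**Figure D5:**
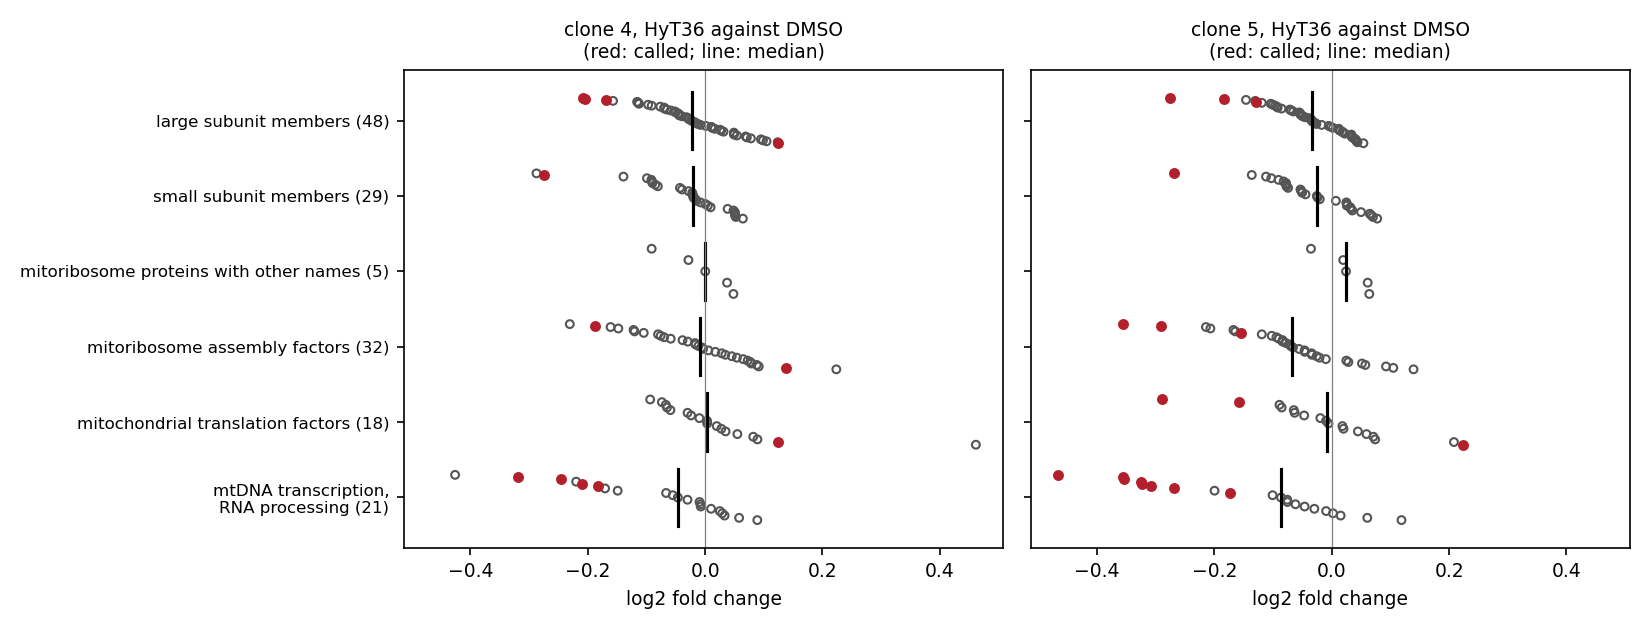
Log2 fold change with ligand (horizontal axes) of members by subunit and of 4 related lists (vertical axis, number tested in brackets), in clone 4 on the left and clone 5 on the right. Each circle is a gene, red where called, and the vertical line is the list's median. On the right 8 of 21 genes for mitochondrial DNA transcription and RNA processing are red. The lists were chosen with earlier results of these data known.

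With ligand, 5.57% of all genes were called in clone 4 and 8.19% in clone 5. Of 11 regulators of nuclear genes for mitochondria that were tested, 1 (9.09%) was called in each clone. It was MYC, a transcription factor that promotes growth, which fell by 0.24 and 0.14 on the log2 scale (edgeR adjusted p = 0.00019 and 0.038). Of the 13 mRNAs encoded by mitochondrial DNA, 0 were called in clone 4, with 1 at an unadjusted p under 0.05 in edgeR. In clone 5 MT-CO3, a subunit of cytochrome c oxidase, fell by 0.28 (edgeR adjusted p = 0.038). Cytosolic ribosomal protein genes had 0 of 47 large subunit and 1 of 32 small subunit genes called in each clone, RPS4X higher in clone 4 and RPS10 lower in clone 5. At an unadjusted p under 0.05 in edgeR there were 8 of 47 large subunit genes in clone 4 and 0 in clone 5. Of all 14892 genes tested, 2753 in clone 4 and 2976 in clone 5 had such a p. Between the clones with DMSO, 23 of 47 large (48.9%) and 23 of 32 small subunit cytosolic genes (71.9%) were called lower in clone 5. This was so for 28.2% of all genes, and for 41.7% and 34.5% of the mitochondrial large and small subunit members. The cytosolic medians were -0.10 and -0.14, against -0.05 and -0.02 for the mitochondrial large and small subunits. With HyT36, 44.7% and 62.5% of the cytosolic genes were called lower, against 28.9% of all genes.

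The series also carries guide features, and 27 of those were named for a member, 25 for MRPL12 and 2 for MRPL23. They had 0 reads in the 12 libraries.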

How the data were processed

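RNA of 12 bulk libraries was polyA-selected and made into libraries with a NEBNext Ultra II kit, per the labels' protocols. The authors deposited a table of counts per gene, and its values are whole numbers with totals that differ between libraries, so they were taken as counts that are not normalized. Per the submitters' processing notes the series used GRCh38 and Cell Ranger 7, without saying for which libraries. No source used here gives the aligner or strand setting of the bulk counts. Entries that name no gene (ambiguous, unmapped, multimapping and no feature) and guide features did not enter library sizes or fits: ambiguous reads were 6.75 to 7.15% of a library, and gene counts 82.4 to 83.9%.

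The members and lists were chosen with earlier results of these data known. Genes were filtered by group with filterByExpr, which left 14892, and tested with edgeR 4.0.16 (TMM, robust quasi-likelihood, R 4.3.3) in 1 model of 4 group means over all 12 libraries. P-values were adjusted by the Benjamini-Hochberg method across every gene tested, with a threshold of 0.05. The SE was taken as the absolute log2 fold change over the root of F. The fit was tested on simulated counts. False calls there came somewhat more often than the nominal rate. Alternatives included DESeq2 1.42.0, limma-voom (limma 3.58.1), other scalings, no filter, subsets by epithelial transcripts and each library left out.

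Genes named in the text were, per comparison, up to 8 rises and 8 falls past the threshold, the 4 highest and lowest of each subunit, untested members, members with a fixed role and up to 4 genes of each other list. MRPL46 and the neighbouring genes (SARS2, FAU, SYVN1, KLC4, SLC5A3, H19) were picked outside it with their values known. Gene coordinates and promoters are RefSeq's on GRCh38.p14. Replicate libraries differed by more than sampling noise (chi-square per degree of freedom 1.95 to 8.71 over 12 pairs). The highest values, 8.71 and 7.47, were the pairs with replicate 1 of clone 4 with DMSO. The other pair of that group had 2.77, and the remaining pairs had at most 4.81. The other 24 samples of the series were not analysed here.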

Additional observations from a re-analysis of the deposited data

How the results depend on the processing

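None of the 41 named gene results changed sign under any alternative run. The balance of higher and lower calls did for the clone 4 response and for the clones, as given beside those counts. Subunit medians changed sign in some runs for both ligand responses, their difference and the clones. Without HyT36 replicate 2 of clone 5, the small subunit median of the clone 5 response was 0.01, against -0.03. Without DMSO replicate 1 of clone 4, the large subunit median of the difference was 0.004, against -0.02. In the 6 libraries with many epithelial transcripts, the clone medians with DMSO were 0.03 (large) and 0.08 (small). Of the 41 named calls, 31 held under every alternative. They were 0 of 5 for the clone 4 ligand response, 1 of 4 for clone 5 (MRPL49) and 16 of 16 for the clones with DMSO. With HyT36 they were 14 of 16, and MRPL52 and MRPL4 were the exceptions. No alternative could separate the ligand from the epithelial transcripts in clone 5, where the split coincides with the treatment. The covariate used there is estimated from the clone 4 libraries alone. MRPL49 in clone 4 lost its call only in the subsets of 6 libraries with many or few epithelial transcripts (largest adjusted p = 0.11). In the 6 libraries with few epithelial transcripts the clone 4 ligand response called 0 large and 2 small subunit members, and in the 6 with many it called 3 large subunit members, all higher (median 0.05, against -0.02), and 0 small subunit members. The small subunit split between the clones with DMSO was 10 higher and 6 lower in the latter 6, against 7 and 10. These subsets hold fewer libraries, and a group left with 1 library is assumed to vary like the others. They could not be fitted for the clone 5 response, for the difference between responses or, in each subset, for 1 of the clone comparisons, since a group is then missing, and a fit of only the groups compared does not exist for that difference. With no scaling factor clone 5 called 5 large subunit members, and the cause was not tested. When each library was left out in turn, clone 4 called 1 to 4 large and 0 to 3 small subunit members, and clone 5 called 1 to 4 and 0 to 1. The clone 4 large subunit count was 1 without DMSO replicate 3, HyT36 replicate 2 or HyT36 replicate 3, and 2 without DMSO replicate 2 or HyT36 replicate 1. The small subunit count was 3 without DMSO replicate 1. In clone 5 the large subunit count was 1 without DMSO replicate 1, DMSO replicate 3 or HyT36 replicate 3. The clone comparisons called 26 to 31 and 16 to 18 members with DMSO, and 24 to 30 and 15 to 19 with HyT36. The ratio stayed within 1.92 to 1.94, 1.93 to 1.95, 1.82 to 1.83 and 1.82 to 1.83 in the 4 groups. As reported above, it was 2.00, 2.01, 1.94 and 1.93 without MRPS12, 2.12, 2.13, 2.00 and 1.99 by systematic name and 0.908, 0.947, 0.885 and 0.903 as a ratio of medians. Correlations of same-numbered libraries gave no sign that the replicate numbers pair the samples. They ran from -0.476 to 0.187, 2 of 18 were over 0.1, and 3 of 12 libraries correlated best with their own number. Within clone 4 the correlations followed the epithelial split, so the check cannot exclude pairing there. DMSO replicate 1 of clone 4 was at -0.476 with HyT36 replicate 1, and at 0.336 and 0.294 with HyT36 replicates 2 and 3. With the replicate number as a block, clone 4 called 3 large and 1 small subunit members, clone 5 called 2 and 1, the difference 0, and the clones 31 and 18 with DMSO and 28 and 16 with HyT36.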
